A study of Mus musculus with 125 samples.

Results

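Elastic fibre genes, 6 of the 27998 genes in the single-cell gene table, were followed through mouse endothelium: Eln, Fbln5, Fbln2, Fbn1, Ltbp4 and Emilin1. They were chosen by their measured levels in 5 single-cell RNA libraries of brain, by age and by the detection of a pair of arterial genes, so those single-cell values describe the list and support nothing about it. Each single-cell library came from cells bound by anti-CD31 magnetic beads, from dissected brain at embryonic day (E) 9.5, 12.5 and 16.5 and from cortex at postnatal day (P) 8 and in the adult, 1 library per age, where adults were 2 months old in both data sets. The second data set was 66 peak lists of chromatin accessibility (ATAC) from nuclei, 37 labelled endothelial and 29 labelled input, of brain, heart, kidney, liver, lung and retina at P6 and in the adult and of brain, heart and trunk at E12. All nuclei, input included, came from mice or embryos exposed to tamoxifen at 0.015 mg/kg (to the dam for embryos) and kept only where vessels showed green fluorescent protein. The protocol gives collection at E12.5 and P7 for the samples labelled E12 and P6, and the Cre driver and the step that parts endothelial nuclei from input are not given in the sources used here. The single-cell protocol names no tamoxifen, and no label gives strain or genotype.

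Elastic fibres give arteries, lung and skin their recoil. They form when tropoelastin, the soluble product of Eln, is gathered into globules, laid on a scaffold of fibrillin microfibrils and cross-linked by lysyl oxidases. In large arteries most elastin is made by smooth muscle cells late in development and soon after birth, and the inner elastic lamina lies directly under the endothelium.

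The listed genes cover several roles in that assembly. Eln encodes the elastic core itself. Fbn1 encodes fibrillin-1, the main protein of the microfibril scaffold. Fbln5 and Fbln2 encode fibulins, secreted proteins that bind tropoelastin and help to place it on microfibrils. Ltbp4 encodes a latent TGF-beta binding protein that works with fibulin-5 in elastin deposition. Emilin1 encodes a glycoprotein found where elastin and microfibrils meet.

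RefSeq on GRCm38.p6, the patch release of the mm10 build, places Eln at chr5:134702595-134747368, Fbln5 at chr12:101746565-101819119, Fbln2 at chr6:91212460-91272540, Fbn1 at chr2:125300594-125506485, Ltbp4 at chr7:27305140-27339720 and Emilin1 at chr5:30913387-30921279. RefSeq promoter windows, 250 bases before to 50 bases after a start site, matched 5 of the 6 genes: 2 windows for Fbln5, 3 for Ltbp4 and 1 each for Fbln2, Fbn1 and Emilin1. The first window of each gene is printed because the share of lists with a peak over it is given below by age. The windows are Fbln5 at chr12:101819070-101819369 on the minus strand, Fbln2 at chr6:91212514-91212813 on the plus strand, Fbn1 at chr2:125506389-125506688 on the minus strand, Ltbp4 at chr7:27337563-27337862 on the minus strand and Emilin1 at chr5:30913536-30913835 on the plus strand. Each reads 5′ to 3′ along the gene, and capitals mark every match, on either strand, to AGGAAG (a core bound by ETS factors), GGGCGG (the GC box bound by SP and KLF factors), TATAAA (the TATA box) or GTGGGAA (a site bound by RBPJ).
Fbln5: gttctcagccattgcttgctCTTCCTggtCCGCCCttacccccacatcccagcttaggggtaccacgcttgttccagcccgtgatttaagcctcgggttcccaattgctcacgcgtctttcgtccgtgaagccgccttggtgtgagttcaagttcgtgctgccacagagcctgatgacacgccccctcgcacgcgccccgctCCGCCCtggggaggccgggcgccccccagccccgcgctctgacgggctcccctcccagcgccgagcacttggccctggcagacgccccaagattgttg
Fbln2: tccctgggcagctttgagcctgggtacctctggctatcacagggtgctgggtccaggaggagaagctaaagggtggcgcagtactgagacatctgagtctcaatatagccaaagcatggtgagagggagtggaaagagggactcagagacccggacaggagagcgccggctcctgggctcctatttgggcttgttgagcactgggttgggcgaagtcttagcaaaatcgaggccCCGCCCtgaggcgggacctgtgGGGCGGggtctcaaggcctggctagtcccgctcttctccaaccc
Fbn1: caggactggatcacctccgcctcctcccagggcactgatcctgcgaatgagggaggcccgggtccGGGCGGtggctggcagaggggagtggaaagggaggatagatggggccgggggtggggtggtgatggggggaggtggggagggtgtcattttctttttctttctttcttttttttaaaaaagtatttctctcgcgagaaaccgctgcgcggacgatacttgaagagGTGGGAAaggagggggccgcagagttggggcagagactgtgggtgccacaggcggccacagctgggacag
Ltbp4: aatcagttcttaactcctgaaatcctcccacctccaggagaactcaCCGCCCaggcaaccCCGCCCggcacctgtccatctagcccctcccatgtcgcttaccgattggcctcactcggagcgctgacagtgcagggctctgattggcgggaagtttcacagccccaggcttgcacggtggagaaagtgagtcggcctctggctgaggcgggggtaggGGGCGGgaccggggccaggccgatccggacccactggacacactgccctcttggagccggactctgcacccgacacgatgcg
Emilin1: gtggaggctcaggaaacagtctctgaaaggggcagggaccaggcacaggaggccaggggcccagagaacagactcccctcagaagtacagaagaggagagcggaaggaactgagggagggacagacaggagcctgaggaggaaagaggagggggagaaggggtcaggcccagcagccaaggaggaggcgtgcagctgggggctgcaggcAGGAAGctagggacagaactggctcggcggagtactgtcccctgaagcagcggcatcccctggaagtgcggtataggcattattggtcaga

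The GC box occurred in 4 of these 5 windows, with 3 matches for Ltbp4, 2 each for Fbln5 and Fbln2 and 1 for Fbn1. It occurs in 35.66% of all 32851 windows. The ETS core occurred once for Fbln5 and once for Emilin1, against 35.35% of all windows holding it, and the RBPJ letters once for Fbn1, against 6.383% of all windows. The TATA letters, found in 13.62% of all windows, were in none of the 5. A match describes the letters only. No match overlapped another in the printed windows.

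The single-cell libraries held 3154 to 6347 barcodes called endothelial, those with at least 200 genes, at most 10% mitochondrial UMIs and at least 3 of 6 endothelial genes (Cdh5, Pecam1, Egfl7, Esam, Tie1, Kdr) detected, which was 57.0% of passing barcodes at E9.5 and 77.0 to 95.5% in the other libraries. A UMI is a molecular tag that marks 1 captured transcript. Endothelial barcodes were split by a UMI of Gja4 or Bmx, both known from arterial endothelium, into 890 to 2928 positive and 2086 to 3540 negative barcodes per library. Positive barcodes were deeper from E12.5 on, with medians of 7617.5 to 12144 UMIs against 4410 to 9319. Pairs of libraries shared 0 to 50 of all their deposited barcodes. The E16.5 matrix had no gene table of its own, and its rows were read in the order of the other tables, with which gene totals correlated at 0.9236 to 0.9768 across genes and at most 0.2072 after a shift by 1 row. That library is labelled E16.5, but its deposited name points to a later embryonic day. The label was used, so every E16.5 value below, the Eln and Fbln5 maxima included, rests on it. The erythroid genes Hbb-bs, Hba-a1 and Alas2, which endothelium should lack, summed to 247 to 15710 CPM in the positive and negative classes, where CPM is a gene's UMIs in a class scaled to the same total for every class. With 1 library per age no test between ages is possible, and age cannot be told apart from library, dissection or dissociation. Intervals below are 95% and cover counting error only.

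Eln, the elastin gene, was close to absent at E9.5 and, with all endothelial barcodes counted, highest at E16.5. In Gja4/Bmx-positive barcodes its level in the libraries in order of age was 0.414 CPM (7 UMIs), 23.4, 419.6 (Poisson interval 411 to 428), 135 and 328 CPM. In negative barcodes it was 0.104 (3 UMIs), 0.925, 8.23, 11.5 and 30.6 CPM in the same order. The positive class was thus highest at E16.5. The negative level lay above barcodes with no endothelial gene detected only in the adult (13.8 CPM, 5.96 to 27.2, there), so no order is read in that class. The E16.5 maximum was lost without barcodes holding a UMI of 16 smooth muscle, pericyte and fibroblast genes: positive barcodes then measured 271 CPM at E16.5 and 412 in the adult, and all endothelial barcodes 130 and 142 CPM. Adult negative barcodes then measured 25.8 CPM, no longer above that interval. Across all endothelial barcodes the E12.5 level was 57.3-fold (31.0 to 120) that at E9.5 and the E16.5 level was 16.9-fold (15.8 to 18.0) that at E12.5. The P8 level was 0.300 (0.288 to 0.311) of that at E16.5, and the adult level was 2.50-fold (2.39 to 2.62) that at P8.

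Eln transcripts sat in few barcodes. At E16.5 only 15.3% of positive barcodes (Clopper-Pearson 13.6 to 17.1) held an Eln UMI, the richest 5% of barcodes held 96.2% of all Eln UMIs and a single barcode held 429. At P8 the share was 13.04% and the richest barcode held 519. In the adult 53.2% (49.8 to 56.5) of positive barcodes held an Eln UMI, and the richest 5% held 44.0% of UMIs. The adult level was thus spread over a larger share of barcodes than the E16.5 level. After each barcode was thinned to 2000 UMIs, with 76, 0, 0, 26 and 19 shallower positive and 196, 0, 0, 70 and 153 negative barcodes left out, the shares by age were 0.148, 1.74, 8.06, 4.41 and 27.2%.

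Fbln5, the fibulin that tethers tropoelastin, was at 3 UMIs in all 5644 endothelial barcodes at E9.5. In positive barcodes it measured 0.0591 (1 UMI), 37.3, 522 (512 to 531), 247 and 153 CPM (145.5 to 161) by age. In negative barcodes it measured 0.0694, 2.18, 14.1, 8.23 and 1.21 CPM. The positive class had its maximum at E16.5, also without the mural and fibroblast barcodes (420 CPM, against 179 in the adult). The negative level at E16.5 lay within the interval of barcodes with no endothelial gene detected (10.7 CPM, 2.20 to 31.1), so no order by age is read in that class. The endothelial level at E12.5 was 309-fold (106 to 1500) that at E9.5, a ratio that rests on the 3 UMIs, and E16.5 was 13.1-fold (12.4 to 13.8) above E12.5. At P8 the level was 0.41 of that at E16.5 (0.397 to 0.422). A UMI of Fbln5 was found in 32.2% of positive barcodes at E16.5 and in 24.4% in the adult.

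Fbln2, a fibulin of basement membranes and elastic fibres, had no decline after birth in the positive class. Its levels there were 3.43, 35.3, 132.5 (128 to 137.5), 149.7 and 199 CPM (191 to 208) by age. In negative barcodes it stayed between 2.01 and 7.57 CPM at all ages. Its share of positive barcodes was 29.7% at E16.5, 27.6% at P8 and 50.6% in the adult, and 16.1, 15.6 and 23.9% after thinning. Across all endothelial barcodes E16.5 was 3.5-fold (3.29 to 3.72) above E12.5, and P8 was 0.984 (0.938 to 1.03) of E16.5.

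Fbn1, the fibrillin-1 gene, did not follow the label of a gene going up before birth. It was highest at E9.5, with 70.1 CPM (66.2 to 74.2) in positive barcodes, and the later libraries measured 11.1, 23.1, 8.96 and 11.5 CPM. Negative barcodes held 27.1 CPM at E9.5 and then 4.91, 1.07, 0.541 and 0.227, the last from 3 UMIs. The endothelial level at E12.5 was 0.188 (0.172 to 0.205) of that at E9.5. Within the positive class alone E16.5 was 2.09-fold (1.84 to 2.38) above E12.5, though at 23.1 CPM still within the interval of barcodes with no endothelial gene detected (14.2 CPM, 3.87 to 36.4). The negative class was not above barcodes with no endothelial gene detected from E12.5 on (4.67 CPM, 2.77 to 7.37, at E12.5), so no order is read there after E9.5.

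Ltbp4, whose protein assists elastin deposition, was higher in each later library. Positive barcodes measured 10.3, 31.0, 97.0, 250.5 and 815 CPM (797.5 to 833) from E9.5 to the adult. Negative barcodes measured 2.74, 3.39, 7.49, 110.1 and 413 CPM. In barcodes with no endothelial gene detected Ltbp4 measured 14.2 CPM (3.87 to 36.4) at E16.5, 35.7 (19.5 to 59.9) at P8 and 41.4 (26.6 to 61.6) in the adult, so the negative class stood above them at P8 and in the adult and not at E16.5. In the positive class P8 was 2.58-fold (2.46 to 2.72) above E16.5. In the adult 94.3% of positive and 78.5% of negative barcodes held a Ltbp4 UMI, or 70.5 and 51.9% after thinning.

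Emilin1, the elastin-microfibril interface gene, ran the other way. Positive barcodes measured 92.3, 69.5, 25.3, 8.96 and 5.30 CPM by age. Negative barcodes measured 113, 81.0, 24.3, 5.75 and 1.36 CPM. From E16.5 on neither class lay above barcodes with no endothelial gene detected (21.3 CPM, 7.82 to 46.4, at E16.5), so no order is read from there on. Higher levels in later embryos therefore hold for Eln, Fbln5, Fbln2 and Ltbp4, and the values of Fbn1 and Emilin1 go against such a label.

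**Figure D1:**
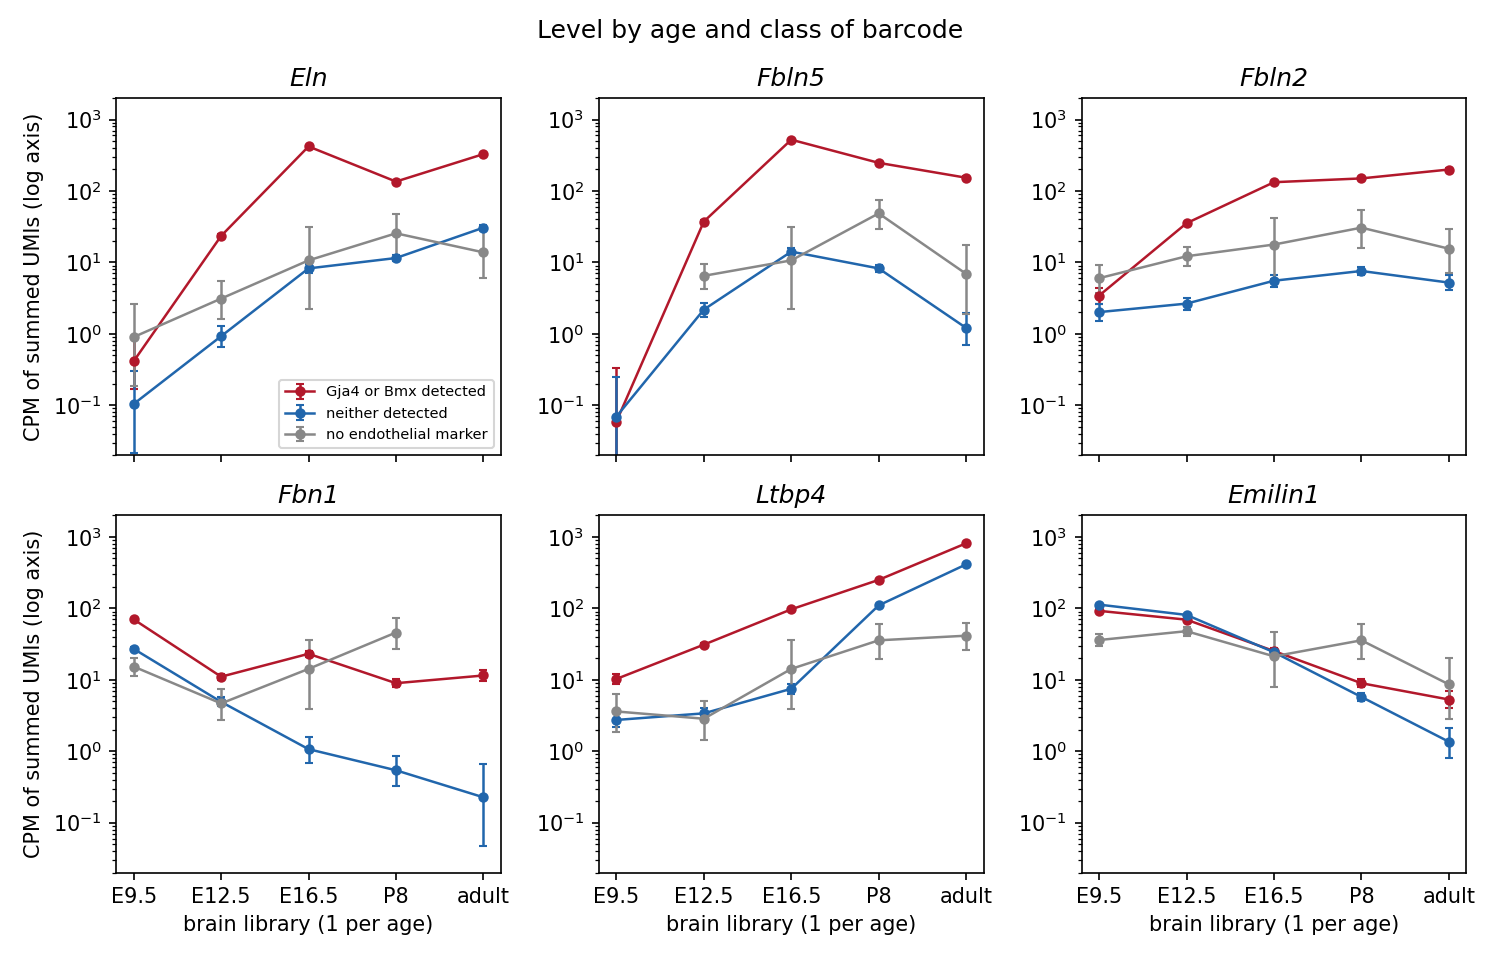
Level of each gene (CPM of summed UMIs, log axis) by brain library, for endothelial barcodes with a UMI of Gja4 or Bmx (red), endothelial barcodes with neither (blue) and barcodes with no endothelial marker (grey). Points are 1 library each, bars are 95% Poisson intervals, and a class with 0 UMIs has no point. In the red class Fbln5 and, with all barcodes counted, Eln are highest at E16.5 (522 and 419.6 CPM). Without mural and fibroblast barcodes Eln is higher in the adult (412 against 271 CPM). Ltbp4 is highest in the adult at 815 CPM. Emilin1 measures less at each later age in both endothelial classes, but from E16.5 on neither lies above the grey interval.

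Read by steps over all endothelial barcodes, 4 of the 6 genes were at least 2-fold higher at E12.5 than at E9.5 and 1 was lower, where 24.0% of 15876 genes were higher and 14.2% lower. From E12.5 to E16.5 again 4 were higher and 1 lower (12% and 15.2% of all genes). From E16.5 to P8 1 was higher and 4 were lower (16.3% and 11.8%), and from P8 to the adult 2 were higher and 1 lower (18.9% and 15%). The median ratios of the 6 genes over the 4 steps were 5.44, 3.21, 0.375 and 1.29, beside 1.14, 0.971, 1.05 and 1.07 for all genes tested. These steps chose the genes, so the counts are a description.

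Some steps moved with how barcodes were taken. Without barcodes holding a UMI of the smooth muscle, pericyte and fibroblast genes, the log2 ratio of Eln from E16.5 to P8 was -0.80 against -1.74 with them, and from E12.5 to E16.5 it was 3.19 against 4.08. The P8 step of Fbln5 was -0.92 against -1.29 in the same way. With a mitochondrial limit of 5%, Fbln2 from E16.5 to P8 had a log2 ratio of 1.16 against -0.02, Fbln5 -0.31 against -1.29 and Fbn1 -0.77 against -1.56. From P8 to the adult the Eln log2 ratio of 1.32 was 0.51 to 0.93 when the deepest barcodes or the mural ones were left out, when each barcode's CPM was averaged or when barcodes were thinned.

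The Gja4/Bmx split set 5 of the genes apart and left Emilin1 near equality up to E16.5. The ratio of positive to negative barcodes for Eln was 25.4 (18.2 to 36.4) at E12.5, 51.0 (43.9 to 59.5) at E16.5, 11.8 (10.6 to 13.1) at P8 and 10.7 (9.66 to 11.9) in the adult. For Fbln5 it was 17.1, 36.9, 30.1 (26.7 to 33.9) and 127 (77.8 to 222). For Fbln2 it was 13.4, 23.9, 19.8 and 38.3. Each of these ratios was thus above 10 in the 4 later libraries, with the interval of adult Eln reaching down to 9.66. Of the negative levels under these ratios, only that of adult Eln lay above barcodes with no endothelial gene detected. Without mural and fibroblast barcodes it did not (25.8 CPM, against an upper bound of 27.2). The size of the other ratios is therefore not read.

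Fbn1 was 2.59-fold (2.36 to 2.84) and 2.25-fold (1.90 to 2.68) higher in positive barcodes at E9.5 and E12.5 and 21.6-fold, 16.6-fold and 50.7-fold (16.9 to 250) at E16.5, P8 and in the adult. The adult ratio rests on 115 against 3 UMIs. Ltbp4 had ratios of 3.75, 9.16, 12.96, 2.28 and 1.97. Its negative level lay above barcodes with no endothelial gene detected only at P8 and in the adult, so the size of its earlier ratios is not read. Emilin1 had ratios of 0.818, 0.858, 1.04, 1.56 and 3.90, and the adult value (2.25 to 7.07) rests on 53 against 18 UMIs, 90.6% of the 53 in barcodes with a mural or fibroblast UMI. At E9.5 Eln had 7 against 3 UMIs (ratio 3.97, 0.907 to 23.8) and Fbln5 had 1 against 2.

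Of the 6 genes, 3 of 5 with enough UMIs were at least 2-fold higher in positive barcodes at E9.5 and 5 of 6 at each later age, with none 2-fold lower. The 5 were Eln, Fbln5, Fbln2, Fbn1 and Ltbp4 at E12.5, E16.5 and P8, and in the adult Emilin1 (3.90) stood in place of Ltbp4 (1.97). Without mural and fibroblast barcodes the adult count had Ltbp4 (959 against 421 CPM) and not Emilin1 (1.39 against 0.839 CPM). The shares of all genes higher were 4.72, 5.29, 6.43, 8.26 and 13.8% from E9.5 to the adult, and of all genes lower 3.39, 3.35, 3.13, 1.44 and 4.23%. Median ratios of the genes were 2.59, 11.3, 22.8, 14.2 and 24.5, against 1.00 to 1.04 for all genes. The counts moved with the settings: thinned barcodes gave 2 at E9.5, 4 at E12.5 and 6 at P8 (4.75, 5.02 and 6.14% of all genes), and a mitochondrial limit of 5% gave 2 at E9.5 and 6 in the adult (4.57 and 12.6%). Without the deepest 5% of barcodes 2 were higher at E9.5 (4.97%), and with at least 2 UMIs of Gja4 and Bmx 6 were in the adult (13.9%). This split was part of how the genes were listed, so nothing is read from the counts.

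At E16.5 another 7 arterial genes, which the split did not use, set Eln, Fbln5, Fbln2, Fbn1 and Ltbp4 apart at their upper end. At E16.5 Eln measured 19.4 CPM in endothelial barcodes with none of the 7 detected, 10.1 with 1, 40.2 with 2 and 327 with 3 or more, and Fbln5 measured 48.8, 19.1, 40.2 and 410.5 CPM. From the first class to the last Fbln2 measured 7.74 and 105 CPM, Fbn1 1.55 and 18.4 CPM and Ltbp4 4.65 and 78.6 CPM. Emilin1 was 28.7, 27.3, 24.9 and 24.0 CPM. For Eln, Fbln5, Fbln2 and Ltbp4 the level with 3 or more was far above that with 2, which was 10.6 CPM for Fbln2 and 9.66 for Ltbp4. Median depth was 5265 UMIs in the first class (209 barcodes) and 11270 in the last (1970 barcodes), and its part in this order was not tested. The upper Fbn1 level lay within the interval of barcodes with no endothelial gene detected (3.87 to 36.4 CPM). At E9.5 Fbln2 went the other way, from 3.21 to 1.30 CPM, and Eln and Fbln5 held 3 and 1 UMIs in the last class. Fbn1 (36.2 to 71.2 CPM) and Ltbp4 (4.32 to 11.8 CPM) were higher there. The share of all genes higher along these classes was not counted. These are the same barcodes by which the genes were listed, sorted by other arterial genes. The order is thus a description and gives no separate support.

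**Figure D2:**
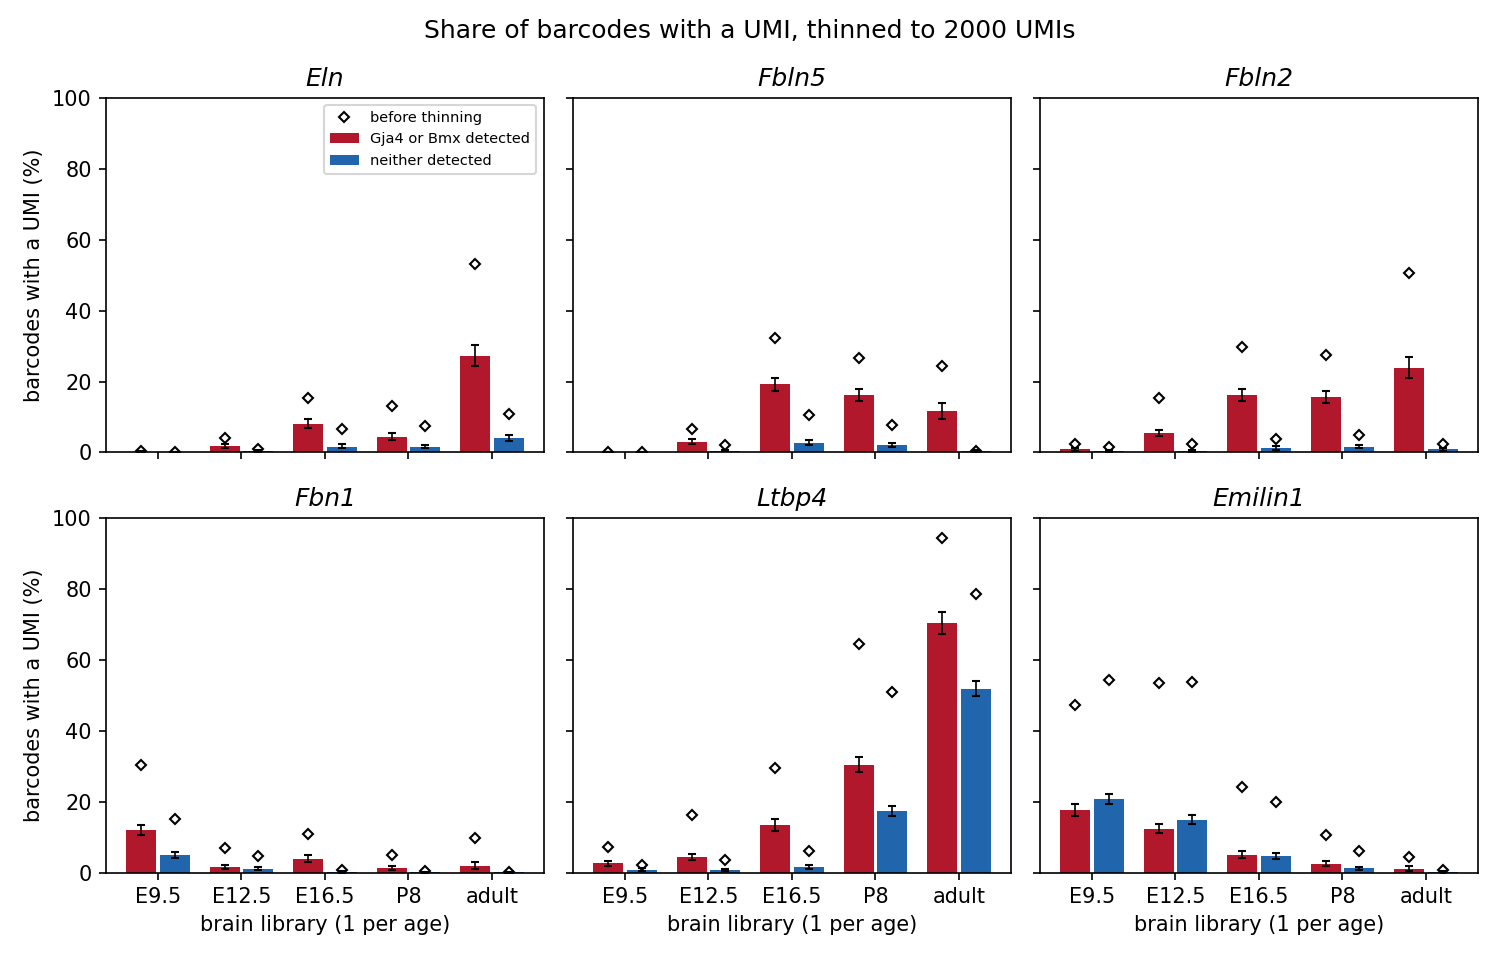
Percent of Gja4/Bmx-positive (red) and negative (blue) endothelial barcodes with a UMI of each gene by brain library, after thinning every barcode to 2000 UMIs (bars, with 95% Clopper-Pearson intervals) and before it (diamonds). Eln goes from 8.06% at E16.5 to 27.2% in adult positive barcodes and Ltbp4 reaches 70.5%, while Emilin1 is nearly equal in both classes up to E16.5.

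Barcodes with none of the 6 endothelial genes served as a background of other cells and free RNA. They numbered 51 to 1118 per library with median depths of 1247 to 6496.5 UMIs, shallower than the endothelial ones, and they held mural and fibroblast markers of their own (fibroblast markers summed to 954 CPM at P8), so they are not free of these genes. By level, negative barcodes lay above the upper bound of this background only for Emilin1 at E9.5 and E12.5, Fbn1 at E9.5, Ltbp4 at P8 and in the adult and Eln in the adult, so the other negative levels, and the ratios over them, are not read as expression in that class. Without mural and fibroblast barcodes the adult Eln level of negative barcodes was 25.8 CPM, under the upper bound of 27.2. Positive barcodes lay above this background except for Eln, Fbln5 and Fbln2 at E9.5, Fbn1 at E16.5 and P8 and Emilin1 from E16.5 on. After thinning, Eln was in 0.542% of them at E12.5, 1.96% at E16.5 and 7.84% at P8, against 1.74, 8.06 and 4.41% of positive barcodes. The P8 share of Eln was thus not above this background, whose interval of 2.18 to 18.9% rests on 4 of 51 barcodes. By level the order was the other way, 135 CPM in positive barcodes against 25.5 CPM (12.2 to 46.9) in the background, so no order is read from the share. Fbln5 at E16.5 was in 5.88% of them against 19.2%, and Fbln2 in 1.96% against 16.1%. Emilin1 at P8 (7.84% against 2.49%) and in the adult (2.11% against 1.03%), and Fbn1 at P8 (5.88% against 1.19%), were no higher in positive barcodes than in this background.

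At E16.5 the genes other than Emilin1 were often found in the same barcodes. Of 185 positive barcodes with Fbn1, 93.0% (88.3 to 96.2) also held Fbln5, 92.4% Fbln2, 84.3% Ltbp4 and 67.0% Eln. In the 1515 positive barcodes without Fbn1 the shares were 24.8, 22.1, 22.8 and 8.98%. Emilin1 stood outside this group, with 29.2% against 23.6%. The Fbn1 level of this class, 23.1 CPM, lay within the interval of barcodes with no endothelial gene detected (3.87 to 36.4 CPM). Barcodes with Fbn1 were deeper (median 12430 against 10120 UMIs), and after thinning 66 barcodes with Fbn1 held Fbln5 in 86.4% and Fbln2 in 80.3%, against 16.5 and 13.5% of the rest.

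Barcodes with Eln showed the same sharing. Of 137 thinned positive barcodes with Eln, 85.4% held Fbln5, 75.2% Fbln2 and 59.9% Ltbp4, against 13.4, 10.9 and 9.28% of those without. Emilin1 was in 8.76% against 4.73%. Barcodes with Eln were deeper before thinning (median 12860 against 10100 UMIs). No doublet caller was run, and the part of droplets with more than 1 cell in this sharing was not tested. At E16.5, positive barcodes with a mural or fibroblast UMI held 53.8% of Eln, 42.3% of Fbln5 and 32.8% of Fbln2 UMIs. They held 34.0% of Fbn1 and 35.4% of Ltbp4 UMIs and were 23.3% of the class, and their part was not tested. The class was part of how the genes were listed, and sharing among other genes is not given, so these shares are a description.

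**Figure D3:**
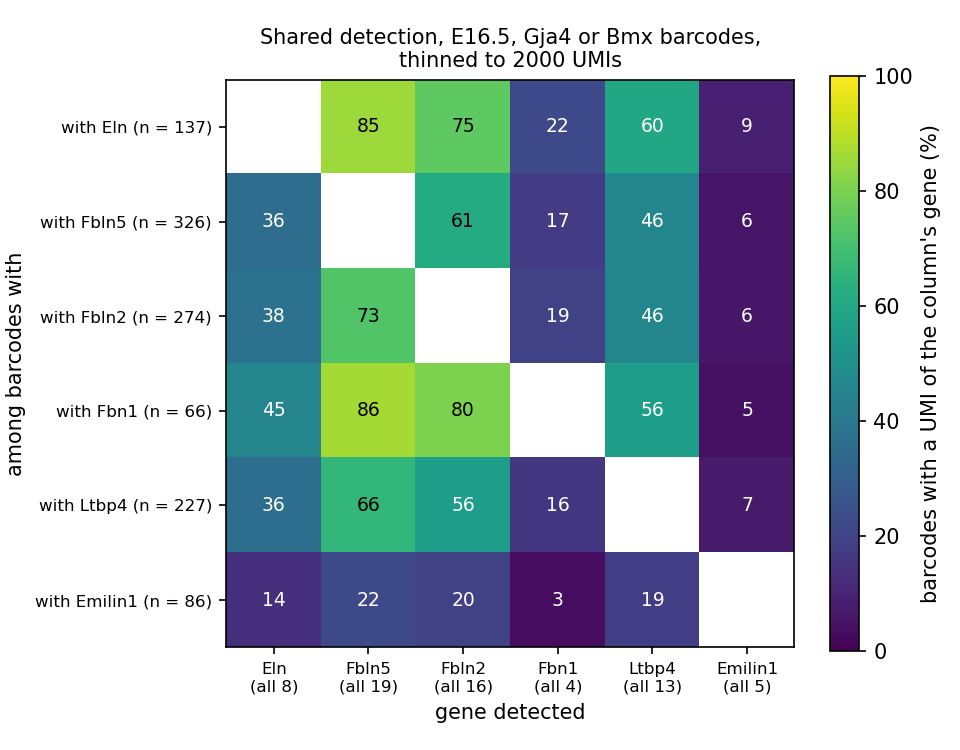
Percent of thinned Gja4/Bmx-positive barcodes of the E16.5 library with a UMI of the column's gene, among those with the row's gene. The share among all such barcodes stands under each column. Shares of Eln, Fbln5, Fbln2, Fbn1 and Ltbp4 are well above it where another of these genes is present (85.4% for Fbln5 where Eln is present, 19.2% in all), and those of Emilin1 lie near it.

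Markers of smooth muscle cells were higher in positive barcodes in all 5 libraries, and those of pericytes in 4 of 5, the exception being E9.5 with 4.73 against 5.83 CPM. The summed level of 4 smooth muscle genes (Acta2, Myh11, Tagln, Cnn1) was 4.19 CPM in positive and 1.21 in negative barcodes at E16.5, with Cnn1 at 0 in both. It was 278 against 83.3 at E9.5, 18.4 against 5.93 at E12.5, 31.3 against 2.99 at P8 and 1108 against 16.2 in the adult. The 6 pericyte genes summed to 303.5 against 72.0 CPM at E16.5 and 2217 against 709 in the adult, and 6 fibroblast genes to 8.58 against 24.7 at E16.5 and 114.5 against 7.55 in the adult. With every barcode holding a UMI of these genes left out, adult positive barcodes measured 412 CPM for Eln, 179 for Fbln5, 226 for Fbln2 and 959 for Ltbp4, no lower than with them. Emilin1 there measured 1.39 CPM against 5.30. At E16.5 Eln measured 271 CPM without those barcodes against 419.6 with them, and 53.8% of its UMIs lay in those barcodes, which were 23.3% of positive barcodes. In the adult 54.9% of its UMIs lay in 48.9% of positive barcodes. The part of mural and fibroblast RNA in these levels was not tested. The 4 neural genes Tubb3, Stmn2, Sox2 and Neurod1 were also higher in positive barcodes in every library. They summed to 73.6, 194.5, 213, 163 and 698 CPM in the positive class by age and to 20.2, 25.1, 15.02, 4.13 and 33.9 CPM in the negative one. Neurod1 was at 0 in positive barcodes at E12.5, P8 and in the adult. The 4 microglia and macrophage genes Cx3cr1, C1qa, C1qb and Csf1r summed to 69.65 CPM in positive and 11.78 in negative barcodes in the adult. In every earlier library they were lower in positive barcodes. The part of neural and microglial RNA in the split was not tested.

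Of 20 other elastic fibre genes, listed by function, 6 were at least 2-fold higher and 4 lower at E12.5 than at E9.5, 2 higher and 6 lower from there to E16.5, 2 higher and 7 lower from there to P8 and 3 higher and 7 lower in the adult, with 18 or 19 of them measured at each step, beside the shares of all genes given for these steps above. Median ratios over the 4 steps were 1.28, 0.631, 0.6248 and 1.08. Fbn2, a fibrillin of embryonic microfibrils, measured 106, 17.4, 1.11, 0.314 and 0.086 CPM by age. Mfap2, a microfibril-associated glycoprotein, measured 18.9, 161, 89.5, 5.89 and 0.172 CPM. Both microfibril genes were thus near their lowest in the adult, where Eln and Ltbp4 were high.

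Lox, a cross-linking enzyme of elastin, was at 0.0437 (2 UMIs), 0.796, 3.79, 1.49 and 5.29 CPM by age, like Eln lower at P8 than in the libraries on either side. In adult positive barcodes Lox stood at 12.3 CPM (123 UMIs) and in negative ones at 0 UMIs, at least 54.3-fold higher by a floor of 3 UMIs over the negative class. Fbln1, another fibulin, measured 41.0 CPM at P8 and 1.63 in the adult. In the positive class 3, 3, 5, 8 and 11 of the 20 genes were at least 2-fold higher than in the negative class from E9.5 to the adult, among 16, 19, 16, 17 and 12 measured, and 0, 1, 0, 1 and 0 were lower. The shares of all genes in these contrasts were 4.72 to 13.8% higher and 1.44 to 4.23% lower. A gene counted as measured where both classes together held at least 10 UMIs. A rare gene can therefore enter only through the class where it is high, so nothing is read from these counts. Mfap2 was at 131 against 48.9 CPM at E16.5 and Ltbp1, which ties latent TGF-beta to microfibrils, at 18.3 against 0.227 (183 against 3 UMIs) in the adult. Adult positive barcodes also held more smooth muscle (1108 against 16.2 CPM) and fibroblast markers (114.5 against 7.55 CPM). The part of mural and fibroblast RNA in the adult levels of Lox, Ltbp1 and the other genes counted was not tested.

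Over the 10 values of 5 ages and 2 classes, log2(CPM + 1) correlated between Eln and Fbln5 at 0.905, Eln and Fbln2 at 0.924, Fbln5 and Fbln2 at 0.948 and Eln and Ltbp4 at 0.837. It was 0.656 between Fbn1 and Emilin1, -0.100 between Eln and Fbn1 and -0.872 between Ltbp4 and Emilin1. The points share libraries and depth, and the coefficients are descriptions. Among 13517 genes ranked in the same way the most similar to Eln were Gper1 (0.960), Mylip and Tec, to Fbln5 Syt15 (0.964) and Rexo2, and to Fbln2 Syt15 (0.976). For Fbn1 it was Gata6 (0.974), for Ltbp4 Emp2 (0.994), Notch1 (0.984) and Heg1 (0.980), and for Emilin1 Ivd (0.993).

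The peak lists asked whether chromatin near these genes was called open in endothelial nuclei, input nuclei and at each age. Peaks overlapping a gene or the 50 kb on each side were counted in each list and compared by exact two-sided permutation of labels within organs, with Benjamini-Hochberg adjustment over the 20761 to 21084 genes tested. The listing rule also points to these counts, so the tests describe these libraries and are no independent support. Labels do not say which libraries came from separate animals, so p-values measure only the spread between these libraries, which may be technical. Lists differed in length, with medians of 36755.5 peaks in adult, 69067.5 in P6 and 101233 in E12 endothelial lists and 48589.5, 93929.5 and 141866 in the input lists, from libraries of 10.14 to 59.08 M tags. Each comparison was therefore repeated on the 19464 strongest peaks of each list, the length of the shortest. As a check of the label, the promoter windows of Egfl7, Tie1 and Kdr, the 3 endothelial genes with an entry, held a peak in 37 of 37 endothelial and 20 to 24 of 29 input lists.

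Peaks near Eln numbered from 2 to 9 in adult endothelial lists (median 6), from 5 to 19 at P6 (median 10) and from 3 to 15 at E12 (median 10). Input lists held 2 to 18 (median 6.5), 2 to 20 (median 10) and 7 to 16 (median 9). The ranges of endothelial and input lists overlapped at every age. Adult endothelial lists had fewer peaks than P6 ones in 6 of 6 organs, 6.17 ± 1.85 (SD, n = 12) against 11.7 ± 4.10 (n = 14), a mean difference within organs of -6.0 (exact permutation, adjusted p = 0.000775).

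The other genes gave the same direction between P6 and the adult. Fbln5 had 4 to 18 peaks (median 12) in P6 and 2 to 9 (median 4.5) in adult endothelial lists, Fbln2 4 to 18 (median 11.5) and 0 to 9 (median 4.5), and Fbn1 3 to 27 (median 14) and 0 to 13 (median 4), so the ages overlapped for each. In means, Fbln5 had 11.5 ± 4.65 peaks at P6 and 5.0 ± 2.41 in the adult (difference -6.83, exact permutation, adjusted p = 0.00117). Fbln2 had 12.3 ± 4.81 and 4.17 ± 2.92 (-8.19, exact permutation, adjusted p = 0.000775), and Fbn1 13.9 ± 6.98 and 5.42 ± 4.70 (-8.97, exact permutation, adjusted p = 0.00099). All 3 were lower in 6 of 6 organs.

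Ltbp4 had 9 to 22 peaks (median 16.5) in P6 and 5 to 16 (median 9) in adult endothelial lists, and Emilin1 9 to 16 (median 12) and 7 to 11 (median 9), again with overlap. In means, Ltbp4 had 16.2 ± 3.89 and 9.5 ± 2.94 peaks (-6.44, exact permutation, adjusted p = 0.00129), lower in 6 of 6 organs. Emilin1 had 11.4 ± 1.95 and 9.0 ± 1.48 (-2.31, exact permutation, adjusted p = 0.00203), lower in 5 of 6. All 6 genes were thus called lower, as were 78.4% of all genes tested, whose median difference was -2.11, and 0.0963% of genes were higher (79.9% and 0.159% at unadjusted p under 0.05). With equal list lengths none of the 6 was called lower or higher, and 0.917% and 1.36% of genes were. The Ltbp4 difference then turned to 1.31 (6.83 ± 1.11 against 5.5 ± 1.09, exact permutation, adjusted p = 0.0976) and that of Emilin1 to 1.03 (exact permutation, adjusted p = 0.18). For the full lists, labels were also swapped only among libraries of the same organ and kind of read processing. That kind was read from file-name endings, which no label explains. With the 20 of 26 libraries so kept, all 6 were lower in the adult, as were 80.8% of genes, Eln by -6.43 (exact permutation, adjusted p = 0.000941). The lower counts near these genes cannot be told apart from the shorter adult lists.

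Against input, Eln had more peaks in adult endothelial lists once lengths were equal, though not in the full lists. In the full adult lists Eln had 6.17 ± 1.85 (n = 12) endothelial and 7.3 ± 5.08 (n = 10) input peaks (-1.5, exact permutation, adjusted p = 0.452). Among the 19464 strongest peaks it had 3.42 ± 1.08 endothelial and 1.7 ± 0.949 input peaks, higher in 6 of 6 organs by 1.67 (exact permutation, adjusted p = 0.0338). At P6 the equal lists gave 3.0 ± 1.24 (n = 14) and 1.88 ± 0.957 (n = 16), higher in 4 of 6 organs by 1.28 (exact permutation, adjusted p = 0.0156). Ltbp4 at P6 had 5.5 ± 1.09 and 4.31 ± 1.70, higher by 1.28 in 5 of 6 organs (exact permutation, adjusted p = 0.0476). So 1 of 6 genes was higher in adult and 2 of 6 in P6 endothelial lists of equal length, where 2.92% and 12.8% of all genes were, and none was lower (1.32% and 9.59%). Fits that left out 1 library and label swaps within kinds of read processing used the full lists only. How far these equal-length calls rest on single libraries was thus not tested.

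In the full lists 2 of the 6 genes were lower than input in the adult, where 24.7% of genes were lower and 0.299% higher, and 1 of 6 at P6, where 29.6% were lower and 1.98% higher. These were Fbln2 in the adult (4.17 ± 2.92 against 6.8 ± 6.02, -4.0, lower in 6 of 6 organs, exact permutation, adjusted p = 0.0496) and Emilin1 in the adult (9.0 ± 1.48 against 10.8 ± 2.35, -1.92, lower in 5 of 6, exact permutation, adjusted p = 0.0424) and at P6 (11.4 ± 1.95 against 14.3 ± 2.82, -2.97, lower in 6 of 6, exact permutation, adjusted p = 0.0164). At unadjusted p under 0.05 the same 2 and 1 genes were lower and none higher, where 43.4% and 40.1% of genes were lower and 0.727% and 3.51% higher. Of 20 adult fits that each left out 1 library, the Fbln2 call was lost in 14 (adjusted p = 0.0565 to 0.13 by exact permutation) and the Emilin1 call in 14 (0.0533 to 0.152). Both held only without kidney input replicate 1, liver endothelial replicate 2, or replicate 1 of liver, lung or retina input. Liver was the one organ with endothelial lists above input for Fbn1 and Ltbp4. With all adult liver libraries left out, an alternative added after seeing the data, 4 of 6 genes were lower, Fbn1 by -8.4 and Ltbp4 by -5.6 too (exact permutation, adjusted p = 0.0324 and 0.0486), where 35.1% of genes were lower and 0.126% higher. Labels swapped only within organ and kind of read processing kept 16 of 22 libraries, none of liver, and gave the same count of 4 with 64.2% of genes lower. All 3 calls were lost with equal list lengths, where Emilin1 stood at 0.417 in the adult and 0.167 at P6.

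At E12, with 11 endothelial and 3 input libraries, no gene in the genome passed (0.0% higher, 0.0% lower after adjustment, 2.51% and 16% at unadjusted p under 0.05). The smallest p this design allows is 0.01. None of the 6 reached an unadjusted p under 0.05 there. The same held between P6 and E12 endothelial lists of brain and heart (0.0% both ways, 0.149% higher and 15.8% lower unadjusted, smallest p 0.00333), where Eln went from 10.7 ± 3.90 (n = 7) at E12 to 11.8 ± 5.26 (n = 5) at P6 (exact permutation, adjusted p = 0.725). Its organs went opposite ways, with means of 11.7 at E12 and 8.33 at P6 in brain and of 10.0 and 17.0 in heart, where every P6 list lay above every E12 list. This difference between organs was not tested. With equal list lengths Eln in heart had 2 and 4 peaks at P6 and 2 in each E12 list, so the ages overlapped. In the full lists Ltbp4 went from 20.3 ± 6.16 at E12 to 16.6 ± 4.56 at P6 (exact permutation, adjusted p = 0.554). With equal list lengths the Ltbp4 direction turned, with 2.86 ± 1.46 peaks at E12 and 6.0 ± 1.23 at P6, higher by 3.13 in 2 of 2 organs (exact permutation, p = 0.02, adjusted p = 0.287). Fbln2 turned too, from -0.292 in full lists to 1.875 in 2 of 2 organs (exact permutation, p = 0.0233, adjusted p = 0.304). The rest of the genes had p = 0.17 or more by exact permutation. Without heart endothelial E12 replicate 3 the Ltbp4 difference was -5.67 (exact permutation, adjusted p = 0.0412), and 24.3% of all genes were called lower in that fit, against 0.0% in each of the other 11 fits. That library had the fewest tags of all (10.14 M) and 39096 peaks, against 101219 to 120456 in the other heart E12 endothelial lists. It also had the lowest Eln count among them, 3 against 11, 12 and 14. The part of its list length in these values was not tested.

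**Figure D4:**
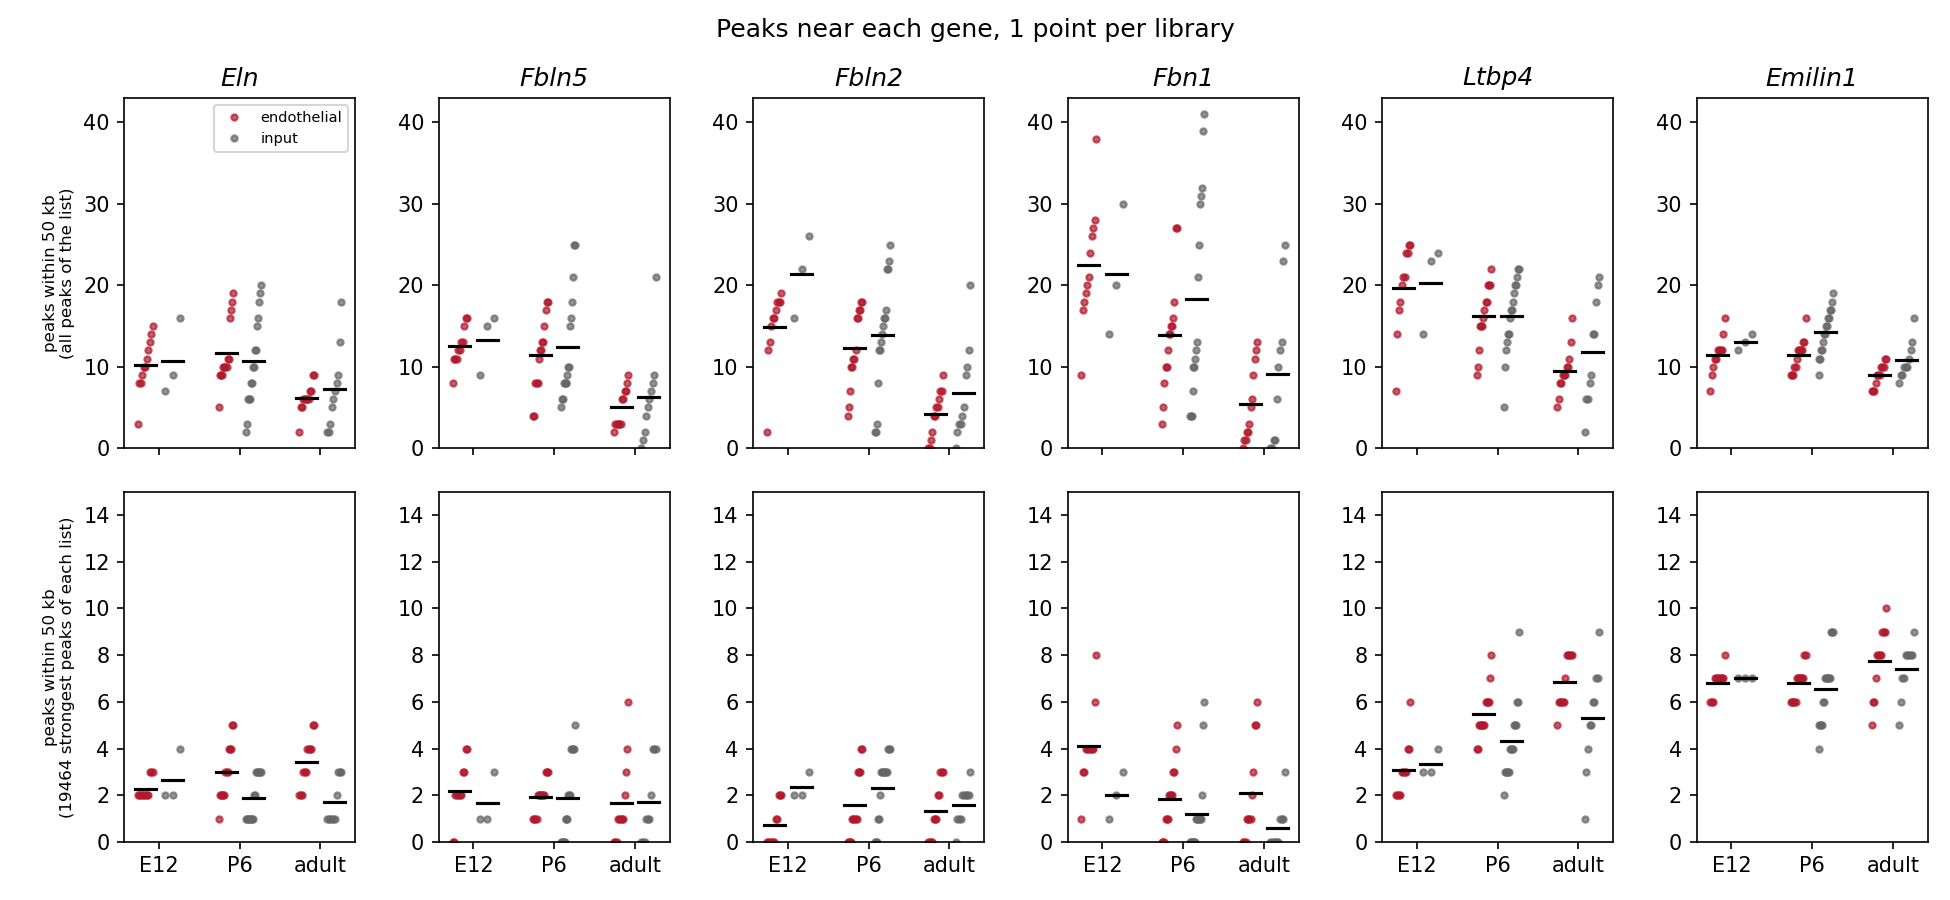
Peaks overlapping each gene or the 50 kb on either side, 1 point per library (endothelial red, input grey; bars are means), by age, in the full lists (top) and in the 19464 strongest peaks of each list (bottom). In the full lists the mean of adult endothelial libraries lies below that of P6 for all 6 genes, and with equal lengths the adult Eln means are 3.42 endothelial and 1.7 input peaks.

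Within the windows, merged peaks marked places used by most endothelial lists. The region near Eln in the most endothelial lists, chr5:134675728-134676974, lay 25621 bases outside Eln over the Limk1 and Gm10369 bodies and was in 37 of 37 endothelial and 28 of 29 input lists. The region over the upper end of Eln, chr5:134746873-134748779, was in 36 endothelial and 23 input lists, and in 0 of 4 liver input lists while all 4 liver endothelial lists had it. The region with the largest excess over input, chr5:134769114-134769666, lay 21746 bases beyond that end within Gm30003 and was in 31 endothelial lists (10 of 11 at E12, 13 of 14 at P6, 8 of 12 in the adult) and 5 input lists, 4 of them lung.

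For Fbln5 a region within the gene, chr12:101766055-101768411, was in 37 endothelial and 23 input lists, and another, chr12:101794366-101795022, in 30 and 7. The latter held in 11 of 11 lists at E12, 12 of 14 at P6 and 7 of 12 in the adult. For Fbn1 the region chr2:125470308-125471261 within the gene was in 36 endothelial and 19 input lists. The one with the largest excess, chr2:125404159-125405276, was in 21 and 4, with 10 of 11 at E12, 10 of 14 at P6 and 1 of 12 in the adult.

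Ltbp4 had the largest excess of any region near the 6 genes, chr7:27334443-27334980, in 31 endothelial and 3 input lists (10 of 11, 13 of 14 and 8 of 12 from E12 to the adult). It lies within Ltbp4 and the overlapping Gm30543. A second region there, chr7:27330650-27331693, was in 37 and 27 lists. For Fbln2 the region chr6:91218332-91219142 within the gene was in 20 endothelial and 6 input lists and in 1 of 12 adult endothelial lists, and chr6:91284689-91285951, 12149 bases outside, in 30 and 27.

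For Emilin1 the region with the largest excess, chr5:30961587-30962025, 40308 bases outside the gene, was in 8 endothelial lists and 1 input list. The most frequent one, chr5:30869026-30870338, over Tmem214, was in all 37 endothelial and 29 input lists. These regions were picked for their counts, so the counts are not tested. All counts of regions are from the full lists, which were shortest in the adult by their medians. Differences between ages in these regions cannot be told apart from list length. Whether they lie in exons or introns was not analysed here.

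**Figure D5:**
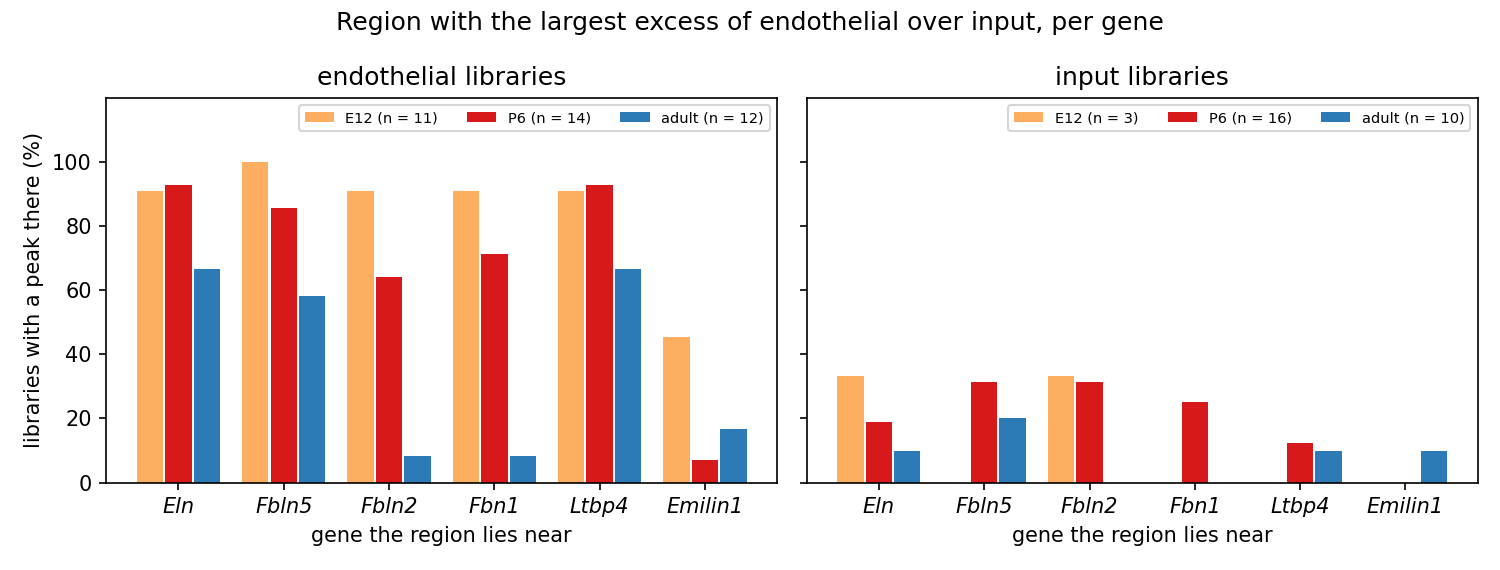
Percent of endothelial (left) and input (right) libraries with a peak in the merged region that has the largest excess of endothelial over input near each gene, by age. For Fbln2 and Fbn1 it was called in 1 of 12 adult endothelial libraries, and for Ltbp4 in 8 of 12. Regions were chosen for this excess. Counts are from the full lists, and ages cannot be told apart from list length.

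Most promoter windows printed above held a peak in a larger share of E12 and P6 than of adult lists, and so did promoters in general. The median list held a peak in 49.2, 42.98 and 35.5% of all windows in endothelial nuclei at E12, P6 and in the adult, and in 51.5, 46.4 and 37.6% in input, with the longer lists at the younger ages. The Fbln2 window held a peak in 10 of 11 endothelial lists at E12, 13 of 14 at P6 and 3 of 12 in the adult, and in 3 of 3, 13 of 16 and 3 of 10 input lists. The Emilin1 window did so in 11 of 11, 14 of 14 and 3 of 12 endothelial and 3 of 3, 14 of 16 and 3 of 10 input lists. For Fbn1 the counts were 11, 13 and 5 of the same endothelial totals and 3, 16 and 6 of the input totals. The share of endothelial and of input lists was lower in the adult than at P6 for each of these 3 genes, and the difference between endothelial and input lists was not tested.

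The first Fbln5 window was called in 10, 13 and 7 endothelial and 3, 16 and 5 input lists, and the second one, which holds none of the searched motifs, in 10, 8 and 0 endothelial and 3, 12 and 2 input lists. The printed Ltbp4 window was called in 8 of 11, 3 of 14 and 1 of 12 endothelial and 3 of 3, 11 of 16 and 4 of 10 input lists, so its share of endothelial lists was already low at P6. The other pair of Ltbp4 windows, with 7 and 9 GC boxes and 80.3 and 81.3% G and C against a median of 52.7% over all windows, held no peak in any list. In lists of equal length the median share of all windows was 30.9, 30.05 and 30.04% in endothelial lists by age. Of the printed windows Fbn1 then had a peak in 5 of 11, 0 of 14 and 0 of 12 endothelial lists, Emilin1 in 6, 2 and 1, Fbln2 in 0, 0 and 2, Fbln5 in 1, 1 and 2 and Ltbp4 in none. The lower adult shares of the full lists cannot be told apart from list length. With equal lengths only Fbn1 and Emilin1 among the printed windows had their largest endothelial share at E12. Input lists of equal length had it there too, with 2 of 3, 2 of 16 and 0 of 10 for Fbn1 and 1, 3 and 1 for Emilin1. Fbln5 was in 1, 4 and 2 input lists, also the largest share at E12, and Ltbp4 in 0, 3 and 2.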

How the data were processed

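Single-cell UMI counts per gene and barcode were deposited as raw 10x matrices, made with Cell Ranger on mm10 per the submitters' processing notes. The file headers of the E12.5 and E16.5 matrices name no Cell Ranger version and the others do, so these runs may differ. ATAC peaks were called by MACS2 2.1.2 in each library, with a shift of -100 and an extension of 200 bases, at q 0.05 and 0.1 for broad regions, and 1 tag kept per position, per the file headers. Each deposited peak carries the authors' pileup signal, fold enrichment and −log10 p and q values. Reads were aligned with Bowtie2 and handled with SAMtools 1.13 and Picard per the submitters' processing notes. The headers name alignment files with 7 kinds of ending. These endings were taken as kinds of read processing, though no label says that processing differed. Bulk RNA tables (54 samples) were not analysed here.

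UMIs were summed per library and barcode class in Python 3.11.15 (NumPy 2.4.6, pandas 2.3.3, SciPy 1.17.1, Numba 0.67.0). A contrast of classes or ages was called at 2-fold where at least 10 UMIs were present. The notes name mm10, and the peak lists were checked against it: 29.73 to 52% of promoter windows held a peak, against 1.16 to 6.298% after a move by 100 kb. Strongest peaks were ranked by the authors' −log10 p. Permutations swapped labels within organs, with Benjamini-Hochberg adjustment at 0.05. Tested on simulated data, 4-fold changes of 200 genes were recovered in 90% for adult and 100% for P6 endothelial against input, 99% for adult against P6, and 0% for E12 against input and for P6 against E12. The simulated counts were Poisson draws around a mean shared within each organ, with no difference in list length. These shares therefore do not cover the spread between the real lists, where recovery may be lower. The 6 genes, the other gene lists and tests were chosen with earlier results of these data known. Named genes are the 6 elastic fibre genes, the 20 other elastic fibre genes, of which examples are given, and the genes most like each of the 6. Labels do not say whether replicate numbers pair samples. The 20 correlations between lists of the same number ran from -0.3181 to 0.3117, some repeated by construction, and cannot settle it. Alternatives were other barcode filters, scalings, windows, thresholds, equal list lengths, a replicate block, adult lists without liver, labels swapped within kinds of read processing and 99 fits without 1 library.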

Additional observations from a re-analysis of the deposited data

Results flagged for a closer look

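Some genes had endothelial counts of peaks within 50 kb above every input list in 1 organ and below it in another, a difference between organs that was not tested. In adult liver Fbn1 had 11 and 13 endothelial peaks against 0 and 1 input peaks, a mean difference of 11.5, while brain, heart and lung lay below input. Ltbp4 in adult liver had 9 and 16 against 2 and 6, a difference of 8.5, again with brain, heart and lung below. Eln in adult liver had 6 and 7 against 2 and 5, a difference of 3, and heart had 7 and 6 against 13. Adult liver lists averaged 42180 endothelial and 32780 input peaks, and heart lists 30910 and 57510, and the part of list length was not tested. With equal list lengths liver endothelial means stayed above input for Fbn1 (4 against 0), Ltbp4 (7 against 2) and Eln (4 against 1.5). The organs below input mostly did not stay so: Fbn1 had means of 1.5 against 0 in brain, 5.5 against 1 in heart and 0.5 against 2 in lung, and Ltbp4 had 7.5 against 5, 8 against 9 and 6.5 against 6.5. Eln in heart had 4 against 3.

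At E12, where input is 1 library per organ, Eln lay above input in brain by 2.67 and in trunk by 2.5 and below it in heart by -6.0. Fbln5 at E12 lay above in brain by 5.67, with 13, 15 and 16 against 9, and below in trunk, with 11, 12, 11 and 13 against 15. With equal lengths the means for Eln were 2.67 against 2 in brain, 2.25 against 2 in trunk and 2 against 4 in heart, and for Fbln5 1.33 against 1 in brain and 1.75 against 3 in trunk. Neither difference between organs was tested.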

How the results depend on the processing

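Among single-cell age steps, a mitochondrial limit of 5% gave 2 of the 6 genes higher and 2 lower from E16.5 to P8 (15.6% and 12.3% of all genes) and 2 lower from P8 to the adult (13.4%). Without barcodes holding a mural or fibroblast UMI, 2 were lower from E16.5 to P8 (12.9%) and 1 higher from P8 to the adult (16.4%). Without the deepest 5% of barcodes, with each barcode's CPM averaged, and after thinning, 1 was higher and 2 were lower from P8 to the adult in each case (15.1 to 17.0% and 14.4 to 16.3%). Thinning also gave 3 rather than 4 higher from E9.5 to E12.5 (23.5%).

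With equal list lengths, adult endothelial against input gave 1 gene higher and 0 lower, P6 gave 2 higher and 0 lower, and adult against P6 gave 0 lower. Of genes called in either setting, directions then reversed for Eln (1.667) and Emilin1 (0.417) in the adult, Ltbp4 (1.278) and Emilin1 (0.167) at P6, and Eln (0.25), Fbn1 (0.028), Ltbp4 (1.306) and Emilin1 (1.028) between adult and P6. Signs also turned without a call for Fbln5 (0.167), Fbn1 (1.5) and Ltbp4 (1.25) in the adult and Fbln5 (0.0556) and Fbn1 (0.944) at P6, for Fbln5 against E12 input (0.444), and for Fbln5 (0.208), Fbln2 (1.875) and Ltbp4 (3.125) between P6 and E12. Equal length changes the lists by construction, and no further cause was tested. A 10 kb window, and a threshold of 5 on the −log10 q, each gave 0 lower in adult (9.15% and 0.0% of all genes) and at P6 (21.0% and 20.1%). In alternatives chosen after seeing the data, leaving out adult liver gave 4 lower in the adult (35.1%), and swapping labels only within an organ and kind of read processing, which also drops liver, gave 4 (64.2%). Leaving out 1 library gave 0 to 2 genes lower in the adult (9.56 to 42.4% of all genes) and 0 to 1 for P6 against E12 (0.0 to 24.3%). With a replicate block 0 genes were lower than input in the adult (0.0%) and 0 at P6 (15.9%), so no full-list call against input held. In the adult none of the 20608 genes tested was called, so that result says nothing particular about these genes. The calls made with equal list lengths were not put through this block. Adult against P6 kept its count of 6 (65.8%). Labels do not say whether replicate numbers pair samples, so it is not known whether this block fits the design.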
